A study of Mus musculus with 26 samples.

Results

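The KO2 clone of 4T1 cells was compared with the 4T1 control to ask how the transcriptome differed in a line carrying a deletion over the start site of the long noncoding RNA MaTAR25. The comparison took the 4 RNA-seq libraries titled KO2 and the 2 titled Control, which are 6 of the 9 RNA-seq libraries and of the 26 samples in the series, and it covered all genes: 15023 of 45318 counted genes had enough counts to be tested. 4T1 is a transplantable mammary tumor line from a BALB/c mouse that metastasizes widely. All 6 libraries came from polyA RNA of cells grown in DMEM with fetal bovine serum and penicillin-streptomycin, with no further treatment. KO2 carries the genotype MaTAR25-/- and was selected as a clone with a homozygous CRISPR/Cas9 deletion, so its libraries represent 1 clone. Control cells are labelled wild type and received a guide against Renilla luciferase. The labels number the libraries and do not say whether they came from separate cultures or, for the control, from separate clones, so the p-values measure the spread between these libraries, which may be technical. A second knockout clone, KO1, with 3 libraries, is described here only where KO2 is set beside it. Its libraries also entered the fit of all 9 RNA-seq libraries. They thus shared in the filter on low counts, the scaling and the estimate of the spread behind the p-values.

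MaTAR25 is the gene 1200007C13Rik, which lies on the minus strand of chromosome 2 in GRCm38 (chr2:167827693-167833646). It has 2 exons, exon 1 at 167832931-167833646 (716 bases) and exon 2 at 167827693-167829431 (1739 bases). Long noncoding RNAs are transcripts without a coding role that can act in the nucleus by binding chromatin and proteins. The guides are shown because they place the deletion: 3 guides cut upstream of the gene start and 1 cuts inside exon 1. A pair is thus designed to remove the start site and leave exon 2 in place. The PAM, the motif next to the guide that Cas9 requires, is in capitals.
MaTAR25 TSS upstream gRNA1: gtggccccagggtgatgactGGG
MaTAR25 TSS upstream gRNA2: aacttcccggccttatcgtcTGG
MaTAR25 TSS upstream gRNA3: gcctgacctagtttctcaccCGG
MaTAR25 TSS downstream gRNA: aagtcagactcttggcgggcGGG
Renilla luciferase control gRNA: ggtataatacaccgcgctac
Upstream gRNA1 matched chr2:167833958-167833977, gRNA2 chr2:167833765-167833784 and gRNA3 chr2:167833805-167833824, all on the plus strand. The downstream guide matched chr2:167833457-167833476 on the minus strand, in exon 1. The stretch between the cuts was 515 bases for gRNA1, 322 for gRNA2 and 362 for gRNA3, each with the downstream guide. These distances come from the guide matches and do not measure the deletion of KO2. The paper gives a size range for the deletions that its guide pairs made, and the distances for gRNA2 and gRNA3 lie below that range. The Renilla guide had 0 matches on chromosome 2. The sources used here do not give the pair that made KO2.

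The MaTAR25 count checks the labels, and it was lower in every KO2 library than in either control library. The control libraries held 35 and 30 counts and KO2 replicates 1 to 4 held 11, 1, 9 and 6. Scaled to CPM, the number of counts out of each 1000000 of the library, with library sizes corrected for composition by the TMM method, this was 0.841 ± 0.104 (SD, n = 2) in control and 0.169 ± 0.113 (SD, n = 4) in KO2. The log2 fold change was -2.26 (SE 0.83) with an adjusted p of 0.0785 in edgeR's quasi-likelihood test. Genes were called at a Benjamini-Hochberg adjusted p below 0.1. The call rests on few counts. It was lost without control replicate 1 (adjusted p = 0.249), control replicate 2 (0.293), KO2 replicate 2 (0.101) or KO2 replicate 4 (0.134). An exact two-sided permutation test of the 2 and 4 values gave p = 0.133, the smallest value that the 15 possible splits allow. KO2 and KO1 did not separate on this gene (KO2 minus KO1 1.13 on the log2 scale, adjusted p = 0.451). Of 3 protein-coding genes of the same stretch of chromosome 2, Cebpb was lower, Ptpn1 higher and Snai1 not called. Cebpb, a C/EBP transcription factor, fell from 52.9 and 61.4 CPM in control to 18.1, 12.2, 22.6 and 20.5 CPM in KO2 (log2 fold change -1.64, adjusted p = 0.00232). Ptpn1, which encodes the tyrosine phosphatase PTP1B, rose from 100.3 and 102.6 CPM to 155.7, 139.5, 151.9 and 157.3 CPM (0.57, adjusted p = 0.0371). For both genes the KO2 libraries lay wholly outside the control range and differed from KO1 (Cebpb -1.39, adjusted p = 0.00655, and Ptpn1 1.09, 0.00474). Snai1, an EMT transcription factor, had 14.7 and 15.0 CPM in control and 19.0, 19.2, 10.4 and 18.1 CPM in KO2, with overlapping groups (adjusted p = 0.686).

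Tns1, which encodes the focal adhesion protein tensin 1, depended on KO2 replicate 3, and its control libraries also differed from each other. It had 6.80 and 2.17 CPM in control and 0.335, 0.379, 2.76 and 0.123 CPM in KO2 replicates 1 to 4. Replicate 3 was above the lower control library, while the other KO2 libraries were below both. Over all libraries the log2 fold change was -2.30 (SE 1.08) and was not called (adjusted p = 0.154), and the exact permutation p was 0.267. Without replicate 3 the log2 fold change was -4.05 with an adjusted p of 0.0123. With any single library left out, it ranged from -4.05 to -1.24. The other genes of the chromatin-pulldown study that were looked up were Lonp2, Pvt1, Ilvbl, Zhx2, Ggnbp2 and Immp2l, and all 6 were called lower in KO2, beside 15.0% over all genes. The study listed them where its pulldown overlapped genes changed in these knockout libraries, so their calls are not independent evidence. Zhx2, a transcriptional repressor, fell from 97.4 and 88.0 CPM to 31.9, 31.5, 26.5 and 45.2 CPM (-1.46, adjusted p = 0.00328). Ggnbp2 fell by 1.08 on the log2 scale (adjusted p = 0.00261), Lonp2, a peroxisomal protease, by 0.64 (0.0226) and the noncoding Pvt1 by 0.72 (0.0419). Immp2l (-1.03, adjusted p = 0.062) and Ilvbl (-0.49, 0.0927) passed by a smaller margin. None of the 6 differed from KO1 at the threshold.

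Across the transcriptome, 4724 of 15023 tested genes (31.4%) were called between KO2 and control. Of these, 2478 genes (16.5% of those tested) were higher in KO2 and 2246 (15.0%) were lower, and 1278 and 1260 of them changed at least 2-fold. The KO2 and control libraries did not overlap for 7045 tested genes (46.9%), and 4600 of the called genes were among these. Protein-coding genes made up 2188 of the higher and 1992 of the lower calls. The median log2 fold change over all tested genes was 0.03. The number of calls rested on both control libraries: with a single control it was 1366 (without control replicate 1) or 1459 (without control replicate 2), and 1346 and 1430 of these were calls in the same direction in the full comparison. Total gene counts were 43155437 and 31178780 in control, 25367211 to 48924579 in KO2 and 30652584 to 61110585 in KO1, and the share of reads not assigned to a gene was 33.9 to 34.3% in control against 35.6 to 37.0% in KO2. Bulk counts cannot tell apart fewer cells with a transcript from less transcript per cell.

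KO2 replicate 3 stood apart from the other KO2 libraries, so the gene groups are also given without it. Pearson's r of log2(CPM + 1) over genes, given as a description, was 0.996 between the controls and 0.987 to 0.991 within KO1, but 0.967 to 0.979 among KO2 replicates 1, 2 and 4 and 0.960 to 0.977 between them and replicate 3. Replicate 3 lay closer to KO1 (0.966 to 0.972) than the others did (0.949 to 0.964). More than 2 log2 units separated it from all other KO2 libraries in 50 genes above and 24 below, of 11050 examined, against 5 and 0 genes for replicate 1, 11 and 22 for replicate 2, and 6 and 11 for replicate 4. For genes called between KO2 and KO1 with the library in question left out, its median position on a scale from KO1 at 0 to the other KO2 libraries at 1 was 0.55 for replicate 3, 0.99 for replicate 1, 0.83 for replicate 2 and 0.90 for replicate 4. Leaving replicate 3 out gave 5294 calls of 14828 tested genes (2728 higher and 2566 lower), and 4405 of the calls with all libraries remained in the same direction. The spread inside KO2 was not due to replicate 3 alone. Over 11097 genes, the median range among 3 libraries was 0.33 log2 units in KO1, and 0.56 in KO2 replicates 1, 2 and 4 against 0.53 to 0.61 in the trios that held replicate 3.

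The genes that separated replicate 3 most, named by the size of the gap, were off in the other KO2 libraries or on only there. Cwh43 had 0.613, 0.210, 51.7 and 0.388 CPM in KO2 replicates 1 to 4, beside 10.7 and 9.51 CPM in control. Notch3, a Notch receptor, had 0.0279, 0, 13.9 and 0.0409 CPM beside 8.93 and 4.45 CPM in control. Replicate 3 was thus at or above the control level in both while its sister libraries were near 0. Tspan1, which encodes a tetraspanin, had 36.9 CPM in replicate 3 and 0 to 0.899 CPM in the others. Klk6, a secreted serine protease, Ly6c1 and Aspa, the enzyme that hydrolyzes N-acetylaspartate, reached 20.4, 12.9 and 13.6 CPM in replicate 3 and at most 0.368 CPM in the other KO2 libraries, with at most 0.461 CPM in control, so for these 3 genes replicate 3 stood above control too. In the other direction, Slc36a4, an amino acid transporter, had 20.8, 23.7, 0.0678 and 17.0 CPM. Birc3, an inhibitor of apoptosis acting in NF-kappaB signalling, had 19.1, 16.5, 0.497 and 12.7 CPM beside 28.5 and 29.2 CPM in control. Stc1, which encodes the secreted glycoprotein stanniocalcin 1, Epdr1, Cavin2, a caveolar coat protein, and Pdgfrl were likewise lowest in replicate 3, at 0.791, 0, 1.15 and 0.339 CPM against at least 8.20 CPM in the other KO2 libraries. These 12 genes were selected for this gap, so their values carry no test.

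Placental genes were the most prominent group among the genes that rose most. The prolactin gene cluster encodes placental lactogens and related hormones that trophoblast giant cells secrete, and the Psg genes encode pregnancy-specific glycoproteins of the trophoblast. Of the 12 protein-coding genes with the greatest rise, 5 belong to these families: Psg22, Prl2c3, Prl3d1, Prl3d2 and Prl3d3. Prl3d1 had 1 and 0 counts in control and 110, 270, 443 and 10 in KO2. Prl3d2 had 2 and 0 counts against 262, 35, 1337 and 56, and Prl3d3 had 1 and 0 against 64, 244, 206 and 7. These genes were picked among calls whose groups did not overlap, so their presence in all 4 KO2 libraries follows from that rule. Their levels differed many-fold from library to library. The ratio of KO2 over control, with a 95% interval for counting error only, was 427 (76.5 to 16900) for Prl3d1, 433 (120 to 3580) for Prl3d2 and 267 (47.7 to 10600) for Prl3d3. Prl2c3 (proliferin) had 0 and 0 counts in control and 24, 149, 340 and 65 in KO2, which is at least 104-fold higher against a floor of 3 counts over the control group (adjusted p = 0.0123). Psg22 had 0 and 0 counts against 186, 46, 49 and 1345, at least 233-fold higher (adjusted p = 0.0272). The adjusted p was 0.0128, 0.0136 and 0.0189 for the 3 Prl3d genes. The transcripts of Prl3d1, Prl3d2 and Prl3d3 are 98.4 to 98.5% identical, and those of Prl2c3 and its relative Prl2c2 are 99.5% identical. Reads that map to several places were left out of the counts. The split among the 3 Prl3d genes, and that between Prl2c3 and Prl2c2, is therefore uncertain.

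Both families were then taken whole, a choice made after these values were seen. Of 26 Prl family genes, 6 passed the filter on low counts and 5 were called higher, beside 16.5% over all tested genes. Of 13 Psg genes, 3 passed and all 3 were called higher. Those that passed did so through the KO2 libraries in most cases, so these counts describe the families and give no support of their own. The summed level of the Prl genes was 0.274 to 0.417 CPM in control, 0.446 to 0.487 CPM in KO1 and 4.47 to 59.7 CPM in KO2. That of the Psg genes was 8.60 to 9.08 CPM in control, 3.36 to 9.25 CPM in KO1 and 21.2 to 90.4 CPM in KO2. Psg17 and Psg19 were already present in control and rose in every KO2 library. Psg17 went from 7.90 and 7.59 CPM to 41.7, 14.0, 26.5 and 48.5 CPM (2.08, adjusted p = 0.0262), and Psg19 from 1.18 and 0.945 CPM to 12.1, 5.26, 4.97 and 14.3 CPM (3.10, adjusted p = 0.00641). Against KO1, the same 5 Prl and 3 Psg genes were called higher in KO2, beside 1527 of 15023 over all tested genes. That comparison uses the same KO2 values through which the genes were noticed, so it gives no separate support. With either control library left out, the Prl calls against control fell from 5 to 1 and the Psg calls from 3 to 1, and without KO2 replicate 3 there were 4 Prl and 3 Psg calls. Prl7b1 was among the family members high in replicate 3 only, with 2, 2, 87 and 5 counts. Gata2, a GATA factor of trophoblast and blood progenitors, had 2 and 1 counts in control and 107, 52, 25 and 23 in KO2 (5.23, adjusted p = 0.0117). It was also higher than in KO1 (4.86, adjusted p = 0.0141), and it was looked up after the placental genes were seen. The other trophoblast genes looked up with it gave no common direction. Plac1, a placental surface protein gene, rose from 32 and 22 counts to 323, 77, 293 and 49 (2.85, adjusted p = 0.0329). The T-box factor Eomes fell from 29.2 and 23.7 CPM to 9.81, 4.46, 14.1 and 12.6 CPM (-1.37, adjusted p = 0.0334). Gata3 (0.40, adjusted p = 0.175) and Tfap2c (2.17, 0.294) were not called, and Cdx2, Elf5, Hand1 and Ascl2 had at most 5 counts over all KO2 libraries and were not tested.

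**Figure D1:**
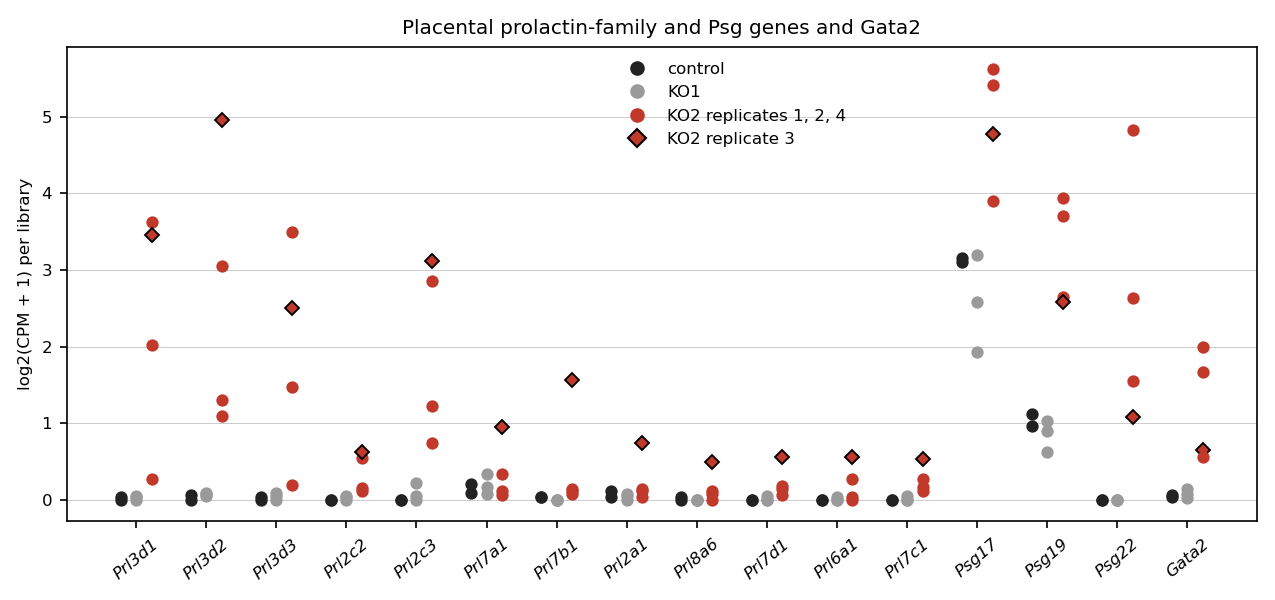
Level of placental prolactin-family genes, Psg genes and Gata2 in each library, as log2(CPM + 1), with control in black, KO1 in grey, KO2 replicates 1, 2 and 4 as red circles and KO2 replicate 3 as a red diamond. The Prl3d genes, Prl2c3 and Psg22 lie near 0 in control and KO1 and spread over several log2 units within KO2, and Prl7b1 is raised in replicate 3 only.

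The other genes that rose most had varied functions, and most of them were near 0 in control. Slco4a1, an organic anion transporter, had 0.0878 and 0.427 CPM in control and 38.4, 147.0, 36.5 and 44.1 CPM in KO2 (8.09, adjusted p = 0.00724). Its KO2 level exceeded KO1 by 5.23 on the log2 scale (adjusted p = 0.0185). Cdh17, an intestinal cadherin, had 2 and 0 counts against 1633, 326, 418 and 75. Ahrr, the repressor of the aryl hydrocarbon receptor, had 0 and 0 counts against 96, 11, 133 and 71, and Pkd1l2 had 0 and 0 against 168, 35, 141 and 160. Each of these 4 genes was also higher in KO2 than in KO1. Gprin1 had 0 counts in control and 96, 14, 29 and 266 in KO2. Pmp22, a myelin protein gene, had 0 in control as well, and its KO2 counts of 154, 482, 6 and 33 were not distinguishable from KO1 (0.24, adjusted p = 0.917). Pip5k1b, a phosphoinositide kinase, had 15.3, 14.1, 4.25 and 0.0817 CPM in KO2, the last near its control values of 0 and 0.0610 CPM. Of genes with another annotation, Mmp1a, an interstitial collagenase annotated as a polymorphic pseudogene, rose from 2 and 0 counts to 198, 49, 207 and 342. Gm37691, a gene model of unsettled type, and the lincRNA Gm43241 had 0 counts in control. They were found in all 4 KO2 libraries, which the rule that named them requires.

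The protein-coding genes that fell most were expressed in control and nearly silent in all KO2 libraries. Vldlr, a lipoprotein and reelin receptor, fell from 36.9 and 48.0 CPM to 0.223, 0.253, 0.0678 and 0 CPM (-8.43, adjusted p = 9.85e-04). Grm3, a metabotropic glutamate receptor, had 129 and 108 counts in control and 0 in all KO2 libraries, at least 156-fold lower. Dapk1, a death-associated kinase, fell from 41.4 and 36.4 CPM to 0.139, 0.0842, 0 and 0.409 CPM (-7.84, adjusted p = 0.00176), while KO1 had 0 CPM in all 3 libraries. In these 3 genes no KO2 library came near the control. Trim46 had 42.8 and 53.8 CPM in control and at most 0.926 CPM in KO2 (-6.31), Soat2, a cholesterol acyltransferase, 19.7 and 25.4 CPM and at most 0.678 CPM (-6.34), and Tmcc2 12.3 and 9.73 CPM and at most 0.195 CPM (-6.52). Tuba8, a tubulin, separated the clones: it had 5.92 and 6.68 CPM in control, 0.0836, 0.168, 0.0904 and 0.0204 CPM in KO2 and 9.10, 17.2 and 14.5 CPM in KO1 (KO2 minus KO1 -7.31, adjusted p = 3.84e-04). Cplx2, a synaptic complexin, fell by 6.18 on the log2 scale, Plppr4 by 6.04 and Gmpr, a guanosine monophosphate reductase, by 5.97. Psd4 had 189 and 62 counts in control and 2 in all of KO2. Of genes with another annotation, Gm43534 fell by 5.35 on the log2 scale. The pseudogene Mrgprb9-ps had 432 and 334 counts in control and 0, 0, 90 and 14 in KO2 (-4.03, adjusted p = 0.0891, and -6.39 without replicate 3). The antisense gene Gm26877 had 272 and 133 counts against 39, 8, 0 and 1 (-3.82, adjusted p = 0.0415). Both were thus still counted in some KO2 libraries. The sources used here do not give whether counting used the strand, so antisense counts may include reads of a partner gene.

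**Figure D2:**
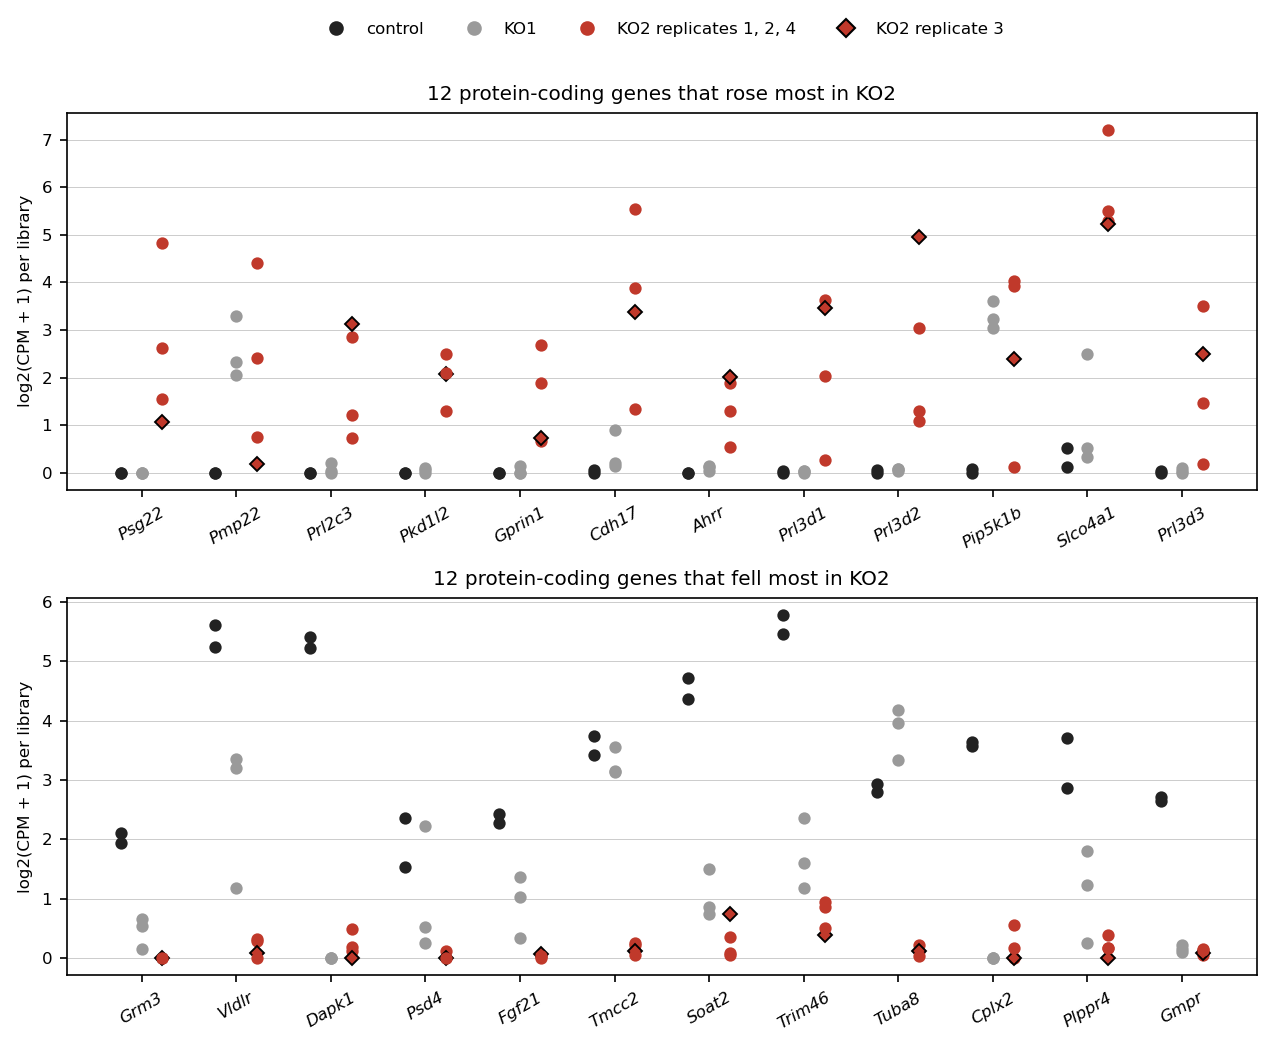
Level in each library, as log2(CPM + 1), of the 12 protein-coding genes that rose most (top) and fell most (bottom) in KO2 against control, with control in black, KO1 in grey, KO2 replicates 1, 2 and 4 as red circles and KO2 replicate 3 as a red diamond. The rising genes spread widely among the KO2 libraries, whereas the falling genes stay below 1 on this scale in all 4.

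Among the most abundant called transcripts, H1f0 fell most and Actb rose most. Lgals1, which encodes galectin 1, rose from 2461.8 and 2197.7 CPM to between 3764.1 and 4744.8 CPM in KO2 (0.85, adjusted p = 0.0071), and Actb, beta-actin, from 1383.5 and 1262.6 CPM to between 2424.1 and 3702.8 CPM (1.17, 0.00356). Pabpc1 (0.68, adjusted p = 0.0154), the chaperone Hsp90ab1 (0.57, 0.0509) and Pkm, pyruvate kinase (1.01, 0.0505), rose as well. H1f0, a linker histone of quiescent and differentiated cells, fell from 1921.1 and 2213.2 CPM to 545.0, 263.7, 509.3 and 502.1 CPM (-2.18, adjusted p = 0.00232), and more than in KO1 (-1.48, adjusted p = 0.0151). Hspa5, the ER chaperone BiP, fell by 0.72 (adjusted p = 0.0562), and the ribosomal protein genes Rpl4, Rpl12 and Rps20 fell by 0.44 to 0.52 on the log2 scale.

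Amino acid stress genes fell together in KO2. ATF4 is the transcription factor that cells make when amino acids run short or the ER is stressed, and its targets supply amino acids, tRNA charging and further stress regulators. Of 42 tested genes on this list, 34 were called lower and 0 higher, beside 15.0% lower over all genes, with a median of -1.60 on the log2 scale. The median in KO1, set against the same control libraries, was -0.89. In the direct test of the clones 25 genes were lower in KO2 than in KO1, beside 1417 of 15023 over all genes. All 11 stress regulators were lower (median -3.38), as were 14 of 18 genes of amino acid synthesis and transport and 9 of 13 tRNA synthetases. Trib3, a pseudokinase that restrains ATF4, fell from 474.0 and 553.2 CPM to 13.9, 7.91, 14.4 and 8.36 CPM (-5.52, SE 0.39, adjusted p = 2.95e-04). Atf5, another stress factor, fell from 339.7 and 336.8 CPM to 9.53, 14.8, 10.9 and 8.42 CPM (-4.96, adjusted p = 3e-04), and Trib3 and Atf5 were lower than in KO1 by 2.96 and 3.10 on the log2 scale. The 4 KO2 libraries agree closely on these genes, replicate 3 included. Cth, the cysteine-forming enzyme, fell by 3.0 and Cebpg, a partner of ATF4, by 2.32 (adjusted p = 4.28e-04 for both). Slc7a11, the cystine transporter, fell from 181.7 and 217.6 CPM to 15.7, 9.60, 13.5 and 10.6 CPM (-4.01, adjusted p = 5.66e-04). Fgf21, a stress hormone, had 175 and 144 counts in control and 1, 0, 2 and 1 in KO2.

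Further members are given because of their place in the pathway and were chosen after their values were seen. Atf4 itself fell from 567.4 and 582.0 CPM to 195.5, 173.7, 188.5 and 147.3 CPM (-1.71, adjusted p = 0.00154), Ddit3 (CHOP) by 3.58, Asns, asparagine synthetase, by 2.17 and Chac1, which degrades glutathione, by 3.06 on the log2 scale. Chac1 was lower than in KO1 by 2.75 (adjusted p = 0.00261). The serine synthesis genes Phgdh (0.10, adjusted p = 0.782) and Psat1 (-0.35, 0.372) were not called. With a single control library 27 or 30 list genes were called lower, and without KO2 replicate 3, 35. Of the ER chaperone and unfolded protein response list, 8 of 25 were higher and 5 lower (median 0.48), beside 16.5% and 15.0% over all genes. All 8 that rose were chaperones or their partners, such as Dnajb11 (1.46, adjusted p = 0.00171) and Manf (1.52, 0.00573). The stress sensor Ern1 (IRE1) was lower (-1.59, 0.00232), as were Herpud1 (-1.43, 0.00734) and Hspa5. Without KO2 replicate 3, 12 genes of this list were higher and 5 lower.

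Interferon-stimulated genes were also lower in KO2, and here the clones went apart. Interferons and viral RNA sensors switch these genes on, and many of their products restrict viruses. Of 48 tested genes, 27 were lower and 0 higher than in control (15.0% lower over all genes), and their median was -1.63 on the log2 scale. In KO1, with the same controls, the median was 0.68, with 16 genes higher and 2 lower. In the direct test 39 of the 48 genes were lower in KO2 than in KO1, beside 1417 of 15023 over all genes. The summed level was 952.8 to 1084.0 CPM in control, 362.2 to 644.2 CPM in KO2 and 900.6 to 1500.8 CPM in KO1. Of the effectors 25 of 39 were lower (median -1.99), and of the signalling genes 2 of 9 (median -0.60). Rsad2, the antiviral enzyme viperin, had 1.03 and 1.95 CPM in control, 0, 0.126, 0.0452 and 0.0613 CPM in KO2 and 30.1, 4.81 and 5.60 CPM in KO1. It fell by 4.72 against control (adjusted p = 0.00848) and was lower than in KO1 by 7.90 (adjusted p = 0.0031). The RNA sensor Ifih1 (MDA5) fell from 57.3 and 59.4 CPM to 8.95, 9.22, 15.7 and 18.5 CPM (-2.15, adjusted p = 0.00186). Ddx58 (RIG-I) fell from 123.6 and 127.5 CPM to 18.2, 43.5, 26.8 and 39.6 CPM (-1.97, adjusted p = 0.00343), and Parp14 by 2.45 (0.00481). The count of genes called depended on both controls: it was 15 without control replicate 1 and 7 without control replicate 2, while without KO2 replicate 3 it was 27 lower and 1 higher.

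Antigen processing moved in part with the interferon genes. The immunoproteasome subunits replace constitutive proteasome subunits after interferon exposure, and 2 of the 3 were lower in KO2. Psmb8 fell from 21.4 and 26.0 CPM to 3.12, 5.09, 6.60 and 5.82 CPM (-2.19, adjusted p = 0.00185) and was lower than in KO1 by 3.20 (adjusted p = 7.85e-04). Psmb9 fell by 2.44 (0.0102), and Psmb10 had -0.04 (0.939). Over the whole proteasome list of 34 genes, 19 were higher and 2 lower (median 0.51), beside 16.5% and 15.0% over all genes. The 19 were 8 of 14 core and 11 of 17 regulatory subunits, such as Psmd13 (1.56, adjusted p = 6.21e-04) and Psmd1 (1.32, 0.00103). Of 17 genes of MHC class I presentation, 4 were lower and 2 higher (median -0.13), the higher share being below that over all genes. The peptide transporter genes Tap1 (-1.81, adjusted p = 0.015) and Tap2 (-1.78, 0.0146), the peptide editor Tapbpl (-2.02, 0.00334) and the nonclassical class I gene H2-T23 (-1.15, 0.0105) were the lower ones. All 4 were also lower than in KO1, by 0.99 to 2.15 on the log2 scale. Without KO2 replicate 3, 20 proteasome genes were higher and 2 lower, and 4 class I presentation genes went each way.

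**Figure D3:**
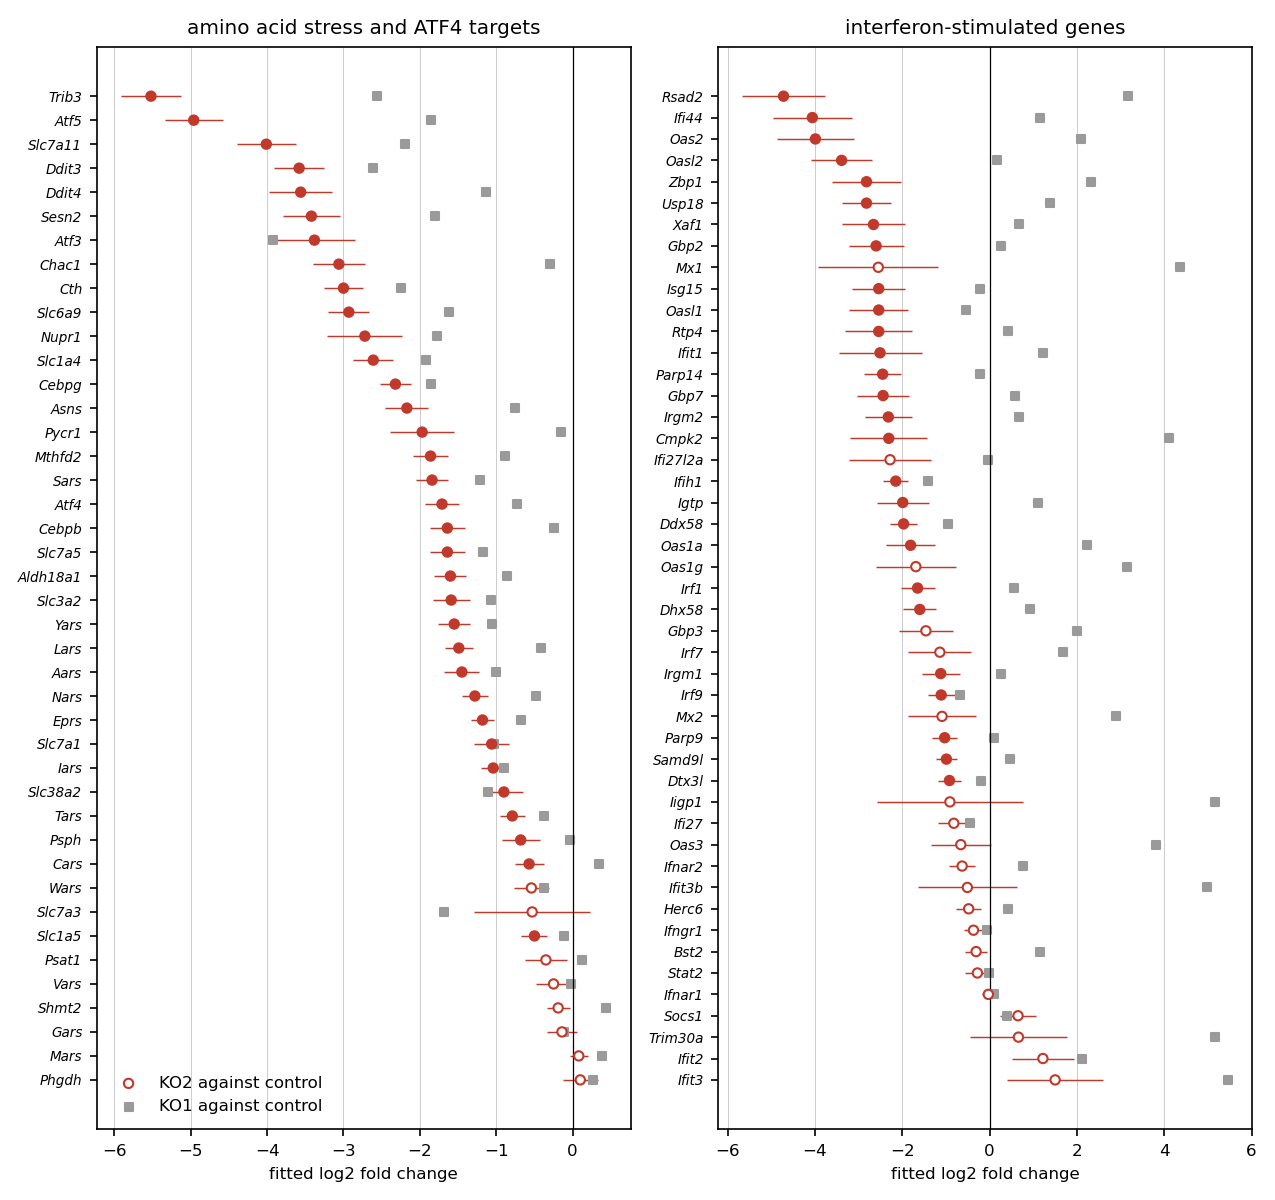
Fitted log2 fold change against control of tested genes of the ATF4 list (left) and the interferon list (right), 1 row per gene, with KO2 as red circles (filled where called, bars of 1 SE) and KO1 as grey squares. The KO2 values of Trib3 and Atf5 reach -5.52 and -4.96, and most interferon genes lie below 0 in KO2 and above 0 in KO1.

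DNA replication genes rose in KO2. Licensing factors load the MCM helicase at origins, and further factors activate it and supply polymerases and nucleotides. Of 45 genes, 40 were higher and 0 lower, beside 16.5% higher over all genes, and the median log2 fold change was 1.28 (1.48 in KO1, with the same controls). The calls covered 11 of 12 licensing genes, 8 of 9 for helicase activation, 15 of 18 for polymerases and clamp and 6 of 6 for nucleotide supply. Cdc6, which loads the helicase, rose from 10.9 and 11.8 CPM to 85.8, 55.9, 78.8 and 82.3 CPM (2.74, SE 0.23, adjusted p = 4.28e-04). Mcm4, a helicase subunit, rose from 60.1 and 68.2 CPM to 333.8, 240.8, 370.6 and 409.1 CPM (2.40, adjusted p = 8.48e-04). Every KO2 library was above both controls for these genes, and Cdc6 and Mcm4 were not called between KO2 and KO1. Tyms, thymidylate synthase, rose by 1.51 (adjusted p = 6.21e-04) and Pole, the leading-strand polymerase, by 1.29 (9.17e-04). With a single control 27 or 30 genes were called, and without KO2 replicate 3, 39. Of 58 mitosis and spindle genes, 31 were higher and 0 lower (median 0.56), and the calls fell to 10 or 12 with a single control and rose to 36 without KO2 replicate 3. Kif20a, a cytokinesis kinesin, rose from 74.4 and 63.8 CPM to 214.6, 168.0, 168.7 and 172.1 CPM (1.39, adjusted p = 0.00111). Mybl2, a cell cycle transcription factor, rose by 1.68 (0.00151), Mki67, the proliferation marker, from 403.3 and 422.5 CPM to 919.0, 998.6, 780.4 and 915.9 CPM (1.13, 0.00171), and Birc5 (survivin) by 1.00 (0.00393). The plot of list medians by library shows the 4 KO2 libraries close together for replication genes, between 1.08 and 1.25.

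Respiratory chain and glycolysis genes that were called were mostly higher. Of 75 nuclear genes of the respiratory chain, 43 were higher and 1 lower (median 0.53), beside 16.5% higher over all genes, and with a single control 11 or 18 were higher. Atp5k, an ATP synthase subunit, rose from 39.2 and 39.4 CPM to 123.1, 169.1, 141.2 and 98.7 CPM (1.76, adjusted p = 0.00154), and Ndufa4 and Cox6c, of complex IV, by 1.48 and 1.17 on the log2 scale. Of 7 tested mitochondrially encoded genes, 4 were higher and 0 lower (median 0.95). They were mt-Nd1, mt-Nd2, mt-Nd5 and mt-Nd6, subunits of complex I, which rose by 0.95 to 1.08. Glycolysis genes were higher in 11 of 18, such as Ldha, lactate dehydrogenase, from 379.1 and 419.3 CPM to 1392.7, 1449.7, 1019.3 and 1586.8 CPM (1.77, adjusted p = 8.72e-04). Hypoxia response genes were higher in 3 of 15 and lower in 2, near the 16.5% and 15.0% over all genes. The lower 2 were Vegfa, the angiogenic growth factor, from 93.9 and 89.9 CPM to 22.8, 9.64, 13.3 and 8.52 CPM (-2.76, 0.00373), and Ndrg1 (-2.16, 0.00376). Over those 33 genes the median by library was 0.42, 0.60, 0.01 and 0.82 in KO2 replicates 1 to 4. Only the median was near the control level in replicate 3. Ldha was still above control and Vegfa below it in replicate 3. Without it, 17 of the 33 were higher and 2 lower, against 14 and 2 with all libraries, the respiratory chain had 45 higher and 2 lower, and the mitochondrially encoded genes 4 and 0.

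Cholesterol synthesis had 12 of 26 genes higher and 0 lower (median 0.84), with library medians of 1.09, 0.10, 0.48 and 0.98, and 3 or 2 calls with a single control. Srebf1, a regulator of lipid synthesis, rose by 1.63 (adjusted p = 0.00428), and Ebp, a sterol isomerase, by 2.12 (0.00336). Over all genes, 16.5% were higher and 15.0% lower. Antioxidant and glutathione genes had 22 of 43 higher and 4 lower (median 0.75). Prdx1, a peroxiredoxin, rose from 194.7 and 210.7 CPM to 486.6, 718.6, 491.7 and 507.4 CPM (1.44, adjusted p = 0.00232), while Slc7a11 and Txnip, the inhibitor of thioredoxin, were lower (Txnip -3.27, 0.00282). The control libraries themselves differed for Txnip, at 124.3 and 347.6 CPM. Lysosome and autophagy genes had 12 of 43 higher and 5 lower (0.31), the lower share being below that over all genes. The cathepsin gene Ctsl rose from 305.5 and 371.9 CPM to 1200.2, 1316.6, 933.4 and 974.1 CPM (1.71, adjusted p = 0.00171), and the autophagy receptor Sqstm1 (p62) fell from 1308.0 and 1553.6 CPM to 224.1, 389.0, 526.9 and 401.2 CPM (-1.89, 0.00355). Cytosolic ribosomal protein genes had 1 of 76 higher and 11 lower (-0.04), the lower share being near that over all genes. For Rpl24, which fell by 2.04, the level of at most 7.28 CPM is far below that of Rpl32 or Rps20. Without KO2 replicate 3, the genes called higher and lower were 12 and 0 for cholesterol synthesis, 25 and 5 for antioxidant genes, 14 and 6 for lysosome and autophagy genes and 2 and 14 for ribosomal protein genes.

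More epithelial genes were lower than higher in KO2, and 5 mesenchymal genes were higher. Replicate 3 stood apart from the other KO2 libraries in the median of the epithelial genes. Tight junctions and desmosomes hold epithelial cells together, and vimentin is the usual mesenchymal filament marker. Of 51 tested epithelial genes, 14 were lower and 1 higher (15.0% and 16.5% over all genes), with a median of -0.58. Against KO1, 16 were lower, beside 1417 of 15023 over all genes. The library medians were -0.69, -0.98, -0.03 and -0.49 in KO2 replicates 1 to 4. Without replicate 3, 25 were lower and the median was -0.88, and with a single control 7 or 6 were lower. Cldn4, a tight junction claudin, fell from 1412.9 and 1406.9 CPM to 230.4, 402.7, 449.2 and 481.2 CPM (-1.85, adjusted p = 0.00345). Esrp1, the epithelial splicing regulator, fell from 518.7 and 508.1 CPM to 92.2, 80.2, 164.5 and 150.1 CPM (-2.08, 0.00154), and Cdh3, P-cadherin, from 11.2 and 7.35 CPM to 0.0558, 0.0421, 0.723 and 0.143 CPM (-5.18, 0.00537). All KO2 libraries were below control in these 3 genes. Cdh1, E-cadherin, looked up after these, fell from 759.2 and 939.2 CPM to 484.3, 354.2, 502.7 and 541.1 CPM (-0.85, adjusted p = 0.0105). No keratin gene among the 9 tested was called.

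Of 17 tested mesenchymal genes, 5 were higher and 0 lower (median 1.08), beside 16.5% and 15.0% over all genes. Against KO1, 5 were higher, beside 1527 of 15023 over all genes. Without replicate 3, 5 were higher and 1 lower than in control. The library medians were alike, at 0.35, 0.34, 0.34 and 0.29 in KO2 replicates 1 to 4. Vim had 380.6 and 257.5 CPM in control and 2856.9, 3141.9, 574.3 and 2773.7 CPM in KO2 (2.87, adjusted p = 0.0234). Replicate 3 lay above both controls but far below the other KO2 libraries, and without it the log2 fold change was 3.20 (adjusted p = 0.00463). S100a4, a calcium-binding protein of motile cells, rose from 1.62 and 2.93 CPM to 37.9, 27.4, 32.5 and 47.0 CPM (4.00, adjusted p = 0.00493). Axl, a receptor tyrosine kinase, rose by 1.30 (0.0071), and Foxc2, a forkhead factor, by 1.20 (0.0582). Among EMT transcription factors as a group, 1 of 9 was called, beside 31.4% over all genes. Cdh2, N-cadherin, had 0 counts in all 6 libraries. Zeb1, checked afterwards, had 23, 14, 0 and 1 counts in KO2 and 16 and 10 in control, so replicates 3 and 4 parted from replicates 1 and 2.

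Adhesion and matrix lists moved in both directions, beside 16.5% higher and 15.0% lower over all genes. Of 37 integrin and focal adhesion genes, 7 were higher and 10 lower (median 0.00). Tns2, a second tensin, fell from 135.9 and 143.0 CPM to 55.7, 38.4, 71.0 and 51.2 CPM (-1.37, adjusted p = 0.00395), and the adaptors Fermt1 (kindlin 1) and Lims1 (PINCH) fell by 1.43 and 1.08 on the log2 scale. Of 41 actin, filopodia and microvilli genes 16 were higher and 4 lower (0.24). Tmsb4x, the actin-sequestering thymosin beta 4, rose from 63.1 and 48.2 CPM to 298.4, 296.8, 313.6 and 276.8 CPM (2.41, adjusted p = 0.00144), and Enah (Mena), which extends filaments, fell from 136.7 and 112.2 CPM to 61.6, 50.1, 62.7 and 58.7 CPM (-1.09, 0.00261). Both differed from KO1 in the same direction, by 1.63 and -1.30. Matrix proteins and collagens had 4 of 36 higher and 3 lower (-0.15), smaller shares than over all genes. Postn, periostin, was one of the lower ones, from 26.8 and 31.2 CPM to 0.0558, 1.56, 0.633 and 2.39 CPM (-4.64, adjusted p = 0.00717), and so was agrin (Agrn, -1.76, 0.00282). Matrix proteases and crosslinkers had 12 of 35 higher and 5 lower (0.59). Adam19, a membrane metalloprotease, rose from 7.15 and 4.03 CPM to 148.2, 98.3, 40.2 and 104.6 CPM (4.12, adjusted p = 0.00164), and Mmp10, stromelysin 2, from 0.197 and 0.366 CPM to 21.0, 7.96, 26.2 and 27.4 CPM (6.21, 0.0029). Both exceeded KO1, by 3.01 (adjusted p = 0.00491) and 3.10 (0.0194). Adam12, in contrast, fell by 1.93 (adjusted p = 6.21e-04). Without KO2 replicate 3, the genes called higher and lower were 10 and 11 for integrins and focal adhesions, 17 and 5 for actin, 7 and 3 for matrix proteins and 12 and 7 for matrix proteases.

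Signalling lists also moved in both directions, beside 16.5% higher and 15.0% lower over all genes. Of 43 chemokine and cytokine genes, 4 were higher and 12 lower (-0.34), and 4 and 13 without KO2 replicate 3, with Cxcl16 from 148.6 and 141.9 CPM to 26.3, 32.7, 44.4 and 28.8 CPM (-2.14, 5.66e-04). Of 53 TGF-beta, Wnt and Notch genes, 8 were higher and 12 lower (-0.25), the higher share being near that over all genes, and 8 and 14 without replicate 3. Id2, an inhibitor of bHLH factors, rose from 1.78 and 2.87 CPM to 48.8, 56.9, 84.2 and 35.1 CPM (4.60, adjusted p = 5.66e-04). The Notch ligand Jag1 (-1.77, 0.00233) and Wnt9a (-3.12, 0.00425) were lower. ErbB receptors and ligands had 3 of 29 higher and 3 lower (-0.01), smaller shares than over all genes, and 4 higher and 8 lower without KO2 replicate 3. Areg, amphiregulin, fell from 91.0 and 87.4 CPM to 53.1, 46.2, 49.2 and 55.1 CPM (-0.81, adjusted p = 0.0251) but was above its KO1 level by 2.41 (7.85e-04). Fosb, an AP-1 subunit, was uneven in KO2, at 238.8, 28.1, 235.1 and 80.4 CPM beside 26.6 and 26.7 CPM in control (2.45, 0.0508).

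Among the called genes of the BCL2 family and the p53 targets more were lower than higher, whereas CDK inhibitors went both ways. Of 14 BCL2 family genes, 2 were higher and 7 lower (median -0.68), beside 16.5% and 15.0% over all genes. The lower ones included 5 of 10 pro-apoptotic members. Bbc3 (PUMA) fell from 39.4 and 50.4 CPM to 8.17, 6.36, 10.5 and 8.89 CPM (-2.40, adjusted p = 0.00235). Hrk, another BH3-only gene, had 86 and 26 counts in control and 0, 0, 0 and 1 in KO2. Bid was lower (-1.06, 0.00169) and also below KO1 (-1.68, 4.49e-04), whereas Bax, the pore-forming effector, was higher (0.92, 0.00248). Of 23 p53 targets, 1 was higher and 8 were lower (median -0.33), and of 5 CDK inhibitors 2 were higher and 2 lower (0.46). Cdkn1a (p21) was not called (0.46, adjusted p = 0.681). Without KO2 replicate 3, the BCL2 family had 3 higher and 6 lower, and p53 targets and CDK inhibitors together 3 and 11. Gadd45a, a DNA damage response gene, fell from 184.4 and 237.9 CPM to 13.5, 16.6, 8.61 and 20.3 CPM (-3.84, adjusted p = 4.38e-04), and Sesn2 (sestrin 2) by 3.42 (8.13e-04). Sesn2 is also on the ATF4 list.

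**Figure D4:**
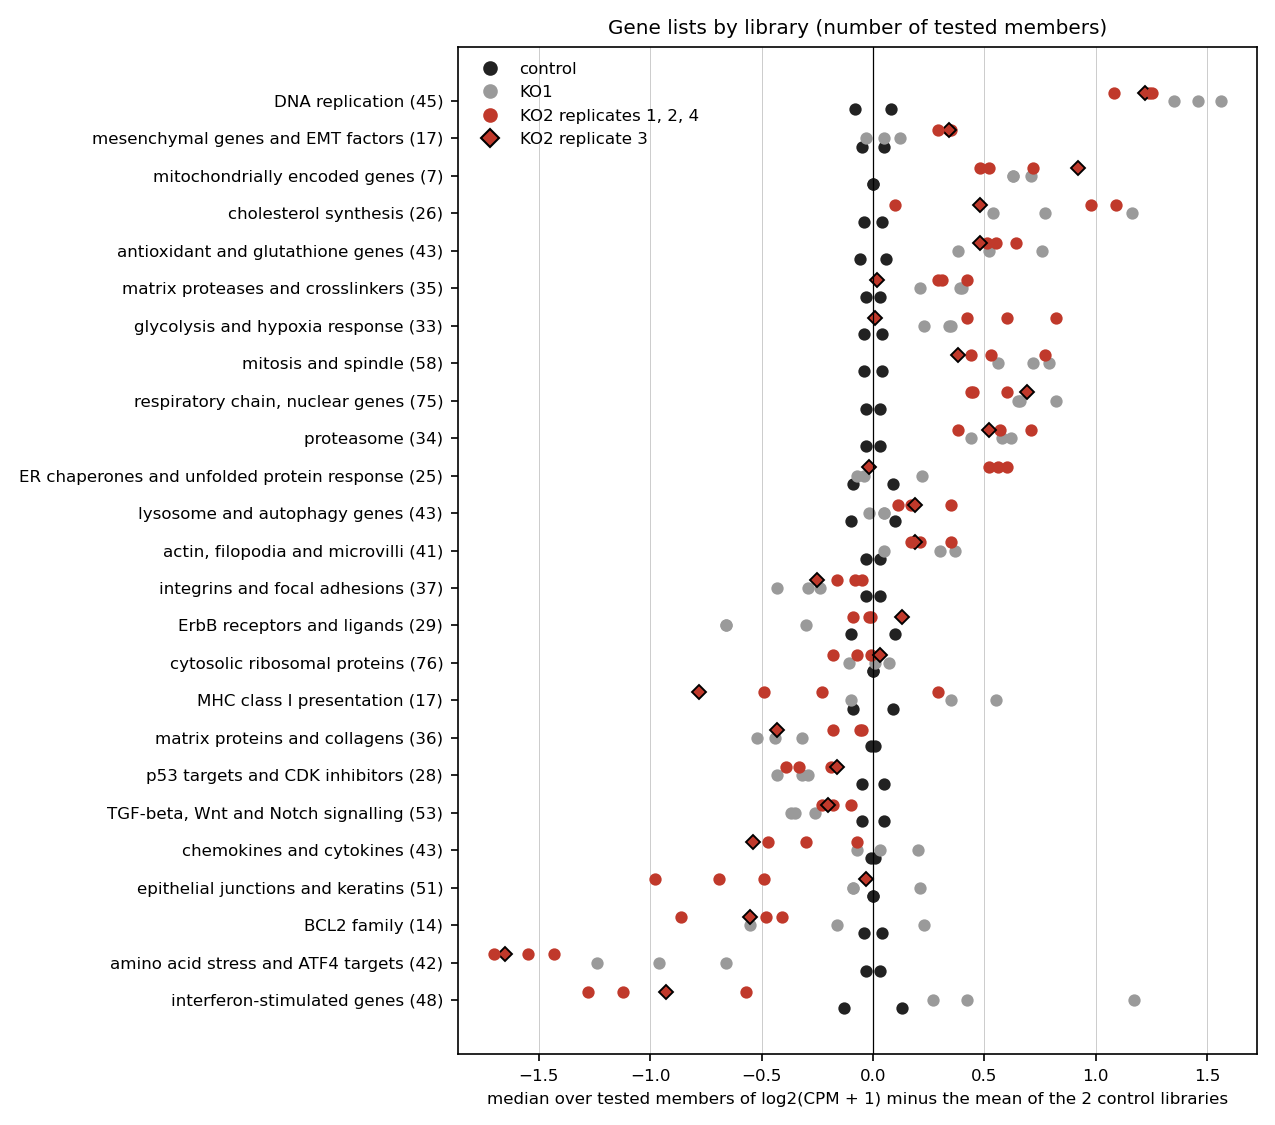
Median over the tested members of each of 25 gene lists of log2(CPM + 1) minus the mean of the 2 control libraries, 1 point per library, with control in black, KO1 in grey, KO2 replicates 1, 2 and 4 as red circles and KO2 replicate 3 as a red diamond. ATF4 targets lie at -1.70 to -1.43 in KO2, interferon genes fall in KO2 and rise in KO1, and replicate 3 is at -0.03 for epithelial genes and 0.01 for glycolysis and hypoxia genes.

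Markers of the labelled cell type were present, and those of other cell types were low. All 11 mammary epithelial markers were tested, and 4 were lower in KO2 and 0 higher, beside 15.0% and 16.5% over all genes. Their summed level was 6156.8 to 6314.6 CPM in control and 2876.4 to 5382.6 CPM in KO2. Basal markers summed to 16.3 to 18.2 CPM in control and 1.70 to 9.13 CPM in KO2, with Krt5 and Krt6a at 0 in all 6 libraries. Fibroblast markers summed to 52.5 to 53.2 CPM and 13.4 to 50.3 CPM, mostly from Postn and Pdgfra, and Dcn, Lum, Col3a1 and Thy1 were at 0. Of 4 tested leukocyte markers 1, Cd14, was higher (summed level 12.2 to 15.7 CPM in control, 14.3 to 45.1 CPM in KO2), and Adgre1 and Cd3e were at 0. Endothelial markers summed to at most 2.65 CPM and adipocyte markers to at most 0.800 CPM in KO2, with 1 gene higher in each list. These are Cdh5, with 1 and 0 counts in control and 25, 33, 4 and 33 in KO2, and Fabp4, with 0 and 0 against 14, 18, 16 and 9. The part of other cells in the results was not tested.

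The direct comparison of KO2 with KO1 called 2944 of 15023 genes (19.6%), 1527 higher and 1417 lower in KO2. No control library enters the contrast itself, but the controls shared in the filter, the scaling and the spread of the same fit. The count of calls also depended on the KO1 libraries, with 874 calls without KO1 replicate 2. It rose to 4077 without KO2 replicate 3. The genes highest over KO1 were at 0 in all 3 KO1 libraries. Sulf2, an extracellular sulfatase, had 40.9 and 31.2 CPM in control and 6.61, 32.5, 6.56 and 8.72 CPM in KO2, and Tbcel 13.9 and 14.7 CPM against 9.12, 10.1, 0.814 and 10.8 CPM. B4galt6, a glycosphingolipid synthase, had 32.1 and 35.2 CPM in control and 21.8, 28.6, 0 and 0.0204 CPM in KO2, so it was on in 2 KO2 libraries and off in the other 2. Sall2, a zinc finger factor, was higher than in control as well (4.52, adjusted p = 0.0137), at 5.69, 3.54, 5.40 and 9.05 CPM. Cck, a peptide hormone gene, was uneven, at 1.56, 33.5, 0 and 3.51 CPM. The genes lowest against KO1 were at or near 0 in both control and KO2. Ehf, an epithelial ETS factor, had 10.2, 64.9 and 40.1 CPM in KO1 and at most 0.0610 CPM elsewhere, and Skor2 had 14.0, 8.75 and 9.46 CPM in KO1 and 0 in the other 6 libraries. Kazn, Cdh10 and Steap4 showed the same order, although Steap4 was at 0.0541 CPM in KO1 replicate 3. C1s1, a complement protease gene, had 4.13, 5.90 and 8.06 CPM in KO1 and at most 0.244 CPM in the other libraries.

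Gene levels along the chromosomes were uneven within KO2. The X chromosome had a median log2 fold change of 0.41, with 130 of 448 genes higher and 29 lower, and chromosome 19 had 0.26 (139 and 48 of 501). Chromosome 12 was lowest at -0.22 (49 and 95 of 500). KO1, set against the same controls, had 0.45 on X, 0.16 on chromosome 19 and -0.48 on chromosome 12. The medians by library on chromosome 12 were -0.32, -0.18, 0.03 and -0.17 in KO2 replicates 1 to 4. In runs of 50 neighbouring tested genes, the highest lay on the X chromosome from 6399854 to 13294052 (Shroom4 to Ddx3x), with a median of 1.05 and 30 genes higher and 2 lower. KO1, with the same controls, had 1.33 there. The lowest run lay on chromosome 2 from 48814109 to 65567627 (Acvr2a to Scn3a), with a median of -0.62, 23 genes lower and 2 higher. The KO1 median there was -0.66. A run on chromosome 6 from 119902698 to 124911705 (Rad52 to Lag3) had -0.54 in KO2 and 0.26 in KO1. Replicate 3 had whole-chromosome medians that its sister libraries lacked. On chromosome 9 it was at -0.37 while replicates 1, 2 and 4 were at 0.08, 0.13 and 0.01, and on chromosome 11 it was at 0.27 against -0.08, -0.23 and 0.06. The largest shortfall of replicate 3 was on chromosome 9 from 64185770 to 70503725 (Map2k1 to Rnf111), where its median was -0.66 and the others were at 0.03, -0.03 and 0.02. DNA copy number was not measured here, and its part in these values was not tested.

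**Figure D5:**
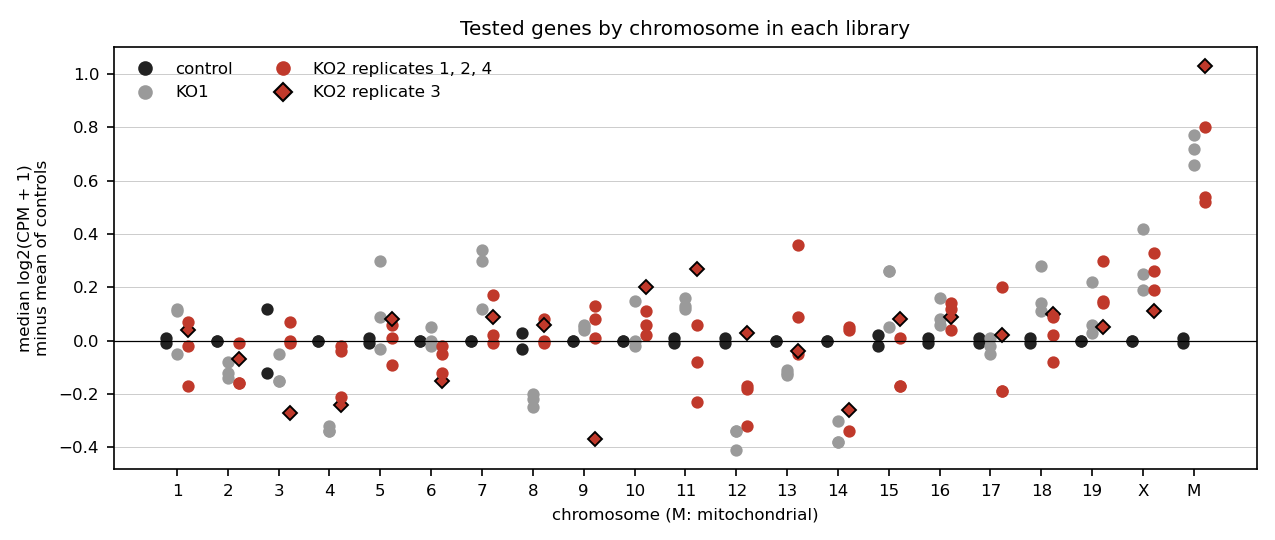
Median over tested genes of each chromosome of log2(CPM + 1) minus the mean of the controls, 1 point per library, with control in black, KO1 in grey, KO2 replicates 1, 2 and 4 as red circles and KO2 replicate 3 as a red diamond. On chromosome 9 replicate 3 lies at -0.37 while the other KO2 libraries are at 0.01 to 0.13, and the mitochondrial genes are raised in all KO2 libraries.

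The promoters of these groups were then searched for short motifs. The windows run from 250 bases before to 50 after the gene start, from RefSeq on GRCm38.p6, and 13386 windows of 10504 tested genes were available. Both strands were searched. The E2F motif TTTNGCGC was in 23.8% of the DNA replication windows (10 of 42) and in 2.33% of all windows. The CHR motif TTTGAA was in 64.7% of the mitosis windows (33 of 51) and in 12% of all, and CCAAT in 74.5% and 37.5%. The ATF4 motif TGATGNAA was in 35.1% of the ATF4 list windows (13 of 37) and in 2.26% of all, and the ISRE motif TTTCNNTTT in 62.5% of the interferon list windows (25 of 40) and 7.68% of all. The lists hold known targets of these factors, so the shares describe the lists. Over all genes called higher and lower, the E2F share was 3.63% and 1.53%, the CCAAT share 43.3% and 34.5%, the ATF4 share 2.04% and 3.52% and the ISRE share 7.18% and 8.29%. The AP-1 motif TGANTCA was in 6.07% and 5.47% of these windows and in 5.54% of all. No motif contains the letters of another, a window can count under several, and AP-1 was found once in each of the windows of Prl3d1, Prl3d2, Prl3d3 and Prl2c3. For each of the 4 groups, 1 window is printed with the motif in capitals.
Mcm7, helicase subunit, chr5:138171834-138172133, minus strand, E2F motif starting at base 17 after the gene start: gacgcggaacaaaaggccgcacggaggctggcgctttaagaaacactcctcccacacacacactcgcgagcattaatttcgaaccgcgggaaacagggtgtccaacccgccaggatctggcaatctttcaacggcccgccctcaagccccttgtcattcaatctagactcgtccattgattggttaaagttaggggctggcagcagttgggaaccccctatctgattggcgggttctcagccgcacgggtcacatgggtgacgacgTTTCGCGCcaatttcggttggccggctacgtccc
Trib3, chr2:152344011-152344310, minus strand, ATF4 motif starting at base 15: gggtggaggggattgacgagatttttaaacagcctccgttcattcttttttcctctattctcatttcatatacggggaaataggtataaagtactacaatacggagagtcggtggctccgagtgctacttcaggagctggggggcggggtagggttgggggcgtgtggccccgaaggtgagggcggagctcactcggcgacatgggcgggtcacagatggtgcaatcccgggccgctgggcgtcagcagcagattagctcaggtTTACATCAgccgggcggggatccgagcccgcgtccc
Ifih1, chr2:62646206-62646505, minus strand, ISRE motif starting at base 34: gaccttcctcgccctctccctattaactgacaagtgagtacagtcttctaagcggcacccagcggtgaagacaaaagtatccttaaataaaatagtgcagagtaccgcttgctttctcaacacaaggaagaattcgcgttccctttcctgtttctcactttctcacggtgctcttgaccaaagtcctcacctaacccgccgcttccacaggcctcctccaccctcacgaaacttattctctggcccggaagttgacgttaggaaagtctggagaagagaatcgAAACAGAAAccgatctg
Prl3d1, chr13:27093939-27094238, plus strand, AP-1 motif starting at base -79: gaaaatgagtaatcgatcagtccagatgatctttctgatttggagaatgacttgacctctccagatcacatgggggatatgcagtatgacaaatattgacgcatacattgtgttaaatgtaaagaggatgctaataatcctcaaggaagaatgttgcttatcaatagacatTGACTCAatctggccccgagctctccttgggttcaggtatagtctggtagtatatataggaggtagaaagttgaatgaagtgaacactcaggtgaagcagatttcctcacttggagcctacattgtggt
Mcm7 had 112.5 and 113.4 CPM in control and 300.3, 243.9, 304.4 and 270.4 CPM in KO2 (1.31, adjusted p = 9.85e-04). A match is a run of letters, and binding was not measured.

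The chromatin pulldown of MaTAR25 in 4T1 cells was set beside the calls. ChIRP uses tiled biotinylated oligonucleotides to recover chromatin bound by an RNA, and the authors deposited 76806 peaks called on pooled replicates, nearly all with an assigned gene. At least 1 peak was assigned to 59.0% of the genes higher in KO2 (95% Wilson interval 57.1 to 60.9%), to 64.1% of the lower genes (62.1 to 66.0%) and to 59.6% of all tested genes. With a peak score of at least 100 the shares were 26.0%, 29.2% and 26.1%. The intervals cover counting error only, and gene length and expression were not adjusted for.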

How the data were processed

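Gene counts were read from the deposited count files, 1 per library. Per the paper's methods and the labels, the authors mapped single-end polyA reads to GRCm38 (mm10) with STAR and counted uniquely mapped reads per gene with HTSeq on GENCODE vM5. The KO2 replicate 2 file lists each gene 3 times with the same count, which was used once. Ensembl ids were matched to symbols for 44671 of 45318 genes. Reads not assigned to a gene stayed out of library sizes. The deposited ChIRP files give a peak score made by the authors on pooled replicates, used for peak presence only.

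Counts of 9 libraries in 3 groups were filtered with filterByExpr, scaled by TMM and tested with edgeR 4.0.16 (glmQLFit and glmQLFTest, R 4.3.3). Genes were called at a Benjamini-Hochberg adjusted p below 0.1, and log2 fold changes are KO2 minus control unless KO1 is named. Medians by library and plots use log2(CPM + 1). The biological coefficient of variation was 32.5%, and the filter left 15023 genes. DESeq2 1.42.0, other filters and scalings, a replicate block and leaving out each library were alternatives. Same-numbered libraries did not deviate together (correlations of -0.20 to 0.06 over 7 pairs), so numbers were not taken as pairs. The procedure was tested on simulated data with 200 genes changed in KO2. That is far fewer than were called here, so the simulation does not cover changes this broad.

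Named genes were the target region and pulldown genes, the 12 protein-coding and 3 other genes that rose and fell most among calls whose groups did not overlap and whose mean reached 1 CPM, the 5 most counted calls in each direction, up to 4 members per list by p, 6 genes each way for replicate 3, and 6 each way against KO1. Genes named beyond this are said to be chosen after their values were seen, as were the further members cited in the marker and list paragraphs. The members and the 25 lists were chosen with earlier results of these data known. List genes not reported here are counted in their lists but are neither named nor plotted.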

Additional observations from a re-analysis of the deposited data

Results flagged for a closer look

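Among 158 named genes, 19 (12%) had a KO2 library whose gap to its nearest neighbour exceeded Dixon's 95% critical value as a share of the range of the 4 libraries. Chance flags about 1 in 20. Replicate 3 was the outlying library for Tns1 (high, 0.83), and it was low for Snai1 (0.903), Vim (0.927), Rps27 (0.9), Scap (0.843) and Tbcel (0.918). Replicate 2 was high for Slco4a1 (0.866), Prdx1 (0.893) and Sulf2 (0.83), and low for H1f0 (0.887) and Egr1 (0.904). Replicate 1 was high for Kif20a (0.903) and low for Osmr (0.908). Replicate 4 was high for Cebpg (0.854) and Ndrg1 (0.961). Psd4, Hrk, Ehf and Kazn reached 1 in a single library (replicates 2, 4, 3 and 1), on no more than 2 counts each.

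In 70 of the 169 genes named by rule and reported here, the gene was called against control and the KO2 effect differed from that in KO1, by the direct test of the clones in the same edgeR fit. Part of these genes were named for their difference between the clones. Over all tested genes, the direct test called 19.6%, whether or not they were also called against control. On the log2 scale, KO2 minus KO1 was above 0 for Prdx1 (0.59), Lamp1 (0.63), Ctsl (0.76), Ptpn1 (1.09), Tmsb4x (1.63), Foxc2 (1.71), Id2 (2.07), Vim (2.13), Il1rl1 (2.18), Areg (2.41), Adam19 (3.01), Gm37691 (3.06), Mmp10 (3.10), Fosb (3.34), Ahrr (4.49), Mmp1a (4.73), Slco4a1 (5.23), Cdh17 (5.55), Dapk1 (5.77), Prl2c3 (5.90), Gprin1 (6.04), Pkd1l2 (6.26), Prl3d3 (6.94), Prl3d2 (7.49), Prl3d1 (7.92), Sall2 (10.89), Psg22 (11.49) and Cck (11.59). It was below 0 for Pole (-0.38), Psmd13 (-0.43), Birc5 (-0.51), Cttn (-0.52), Cth (-0.75), Sqstm1 (-0.78), Ebp (-0.81), Osmr (-0.96), H2-T23 (-0.99), Agrn (-0.99), Ddx58 (-1.01), Spry1 (-1.10), Tns2 (-1.16), Gadd45a (-1.26), Enah (-1.30), Adam12 (-1.31), Cebpb (-1.39), Cxcl16 (-1.40), H1f0 (-1.48), Cldn4 (-1.55), Sesn2 (-1.62), Bid (-1.68), Tap1 (-1.75), Slc7a11 (-1.81), Wnt9a (-1.85), Tap2 (-2.0), Trim46 (-2.02), Tapbpl (-2.15), Parp14 (-2.23), Trib3 (-2.96), Atf5 (-3.10), Psmb8 (-3.20), Plppr4 (-3.30), Tgfbr3 (-3.34), Fgf21 (-5.07), Vldlr (-5.66), Tmcc2 (-6.19), Psd4 (-6.38), Grm3 (-6.99), Tuba8 (-7.31), Rsad2 (-7.90) and C1s1 (-8.03). Where a clone is at 0, as KO1 for Psg22, Cck, Sall2 and Dapk1 or KO2 for Grm3, the fitted size depends on the prior count and is no measure of the fold.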

How the results depend on the processing

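The number of genes called between KO2 and control was 4724 and ranged from 1366 to 5351 when a single library was left out (631 to 2811 higher, 735 to 2566 lower). The low end came from leaving out a control library (1366 without replicate 1 and 1459 without replicate 2). Requiring a 2-fold change left 2538 genes (1278 higher and 1260 lower). Between KO2 and KO1, 2944 calls became 874 to 4077 with a library left out, 1643 at an adjusted p below 0.05 and 1523 with a 2-fold change. With a replicate block, which the numbers do not support as pairing, 1736 genes were called between the clones, 3689 against control, and MaTAR25 was at -1.74 (adjusted p = 0.323).

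MaTAR25, at -2.26, was past the threshold at 0.1 but not at 0.05, and ranged from -2.65 to -2.0 with a library left out. Tns1, at -2.30, ranged from -4.05 to -1.24, and was called with DESeq2 (-2.32, adjusted p = 0.0884), with no filter (-2.31, 0.0931) and without KO2 replicate 3. The direction turned for 5 genes that were not called with all libraries. Cwh43 was at -3.19 under the block and ranged from -4.60 to 0.80 with a library left out, Aspa at -0.21 and from -1.87 to 6.20. Ehf ranged from -3.21 to 2.40, Kazn from -3.18 to 1.63 and Steap4 from -2.84 to 3.32, on 2 to 6 counts in control. Cwh43 without KO2 replicate 3 was past the threshold (adjusted p = 0.00115). The cause was not tested. With DESeq2, all 162 named genes it gave a value for, beside MaTAR25 and Tns1 above, kept their direction and side of the threshold, whereas 36 calls were lost without control replicate 1 and 42 without control replicate 2.

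With 2 control libraries, changes in genes of few counts are measured with little precision, and a single KO2 clone cannot tell apart the deletion from other differences between clones.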
